A study of Oryza sativa with 4 samples.

Results

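Regions of rice leaf chromatin that gave a narrow H4K5ac peak in both well-watered and drought-stressed plants, with nearly the same width in both, are described here. They were chosen by measured peak widths, from pairs of peaks that overlapped each other by at least 1 bp and overlapped no other peak. Both peaks of a pair had to be at most 220 bp wide, with a drought over well-watered width ratio above 0.67 and below 1.2. Of 23644 such 1-to-1 pairs on chromosomes 1 to 12, 816 (3.45%) met these limits. They are called nucleosome-sized pairs, a name that refers to their width alone.

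H4K5ac, the acetylated form of lysine 5 of histone H4, was mapped by chromatin immunoprecipitation and sequencing. The material was leaf tissue of Hanyou73 rice, sampled while the grain was filling. Leaves were taken from well-watered plants (2 libraries) and from drought-stressed plants (2 libraries). Labels give no genotype difference or other agent between the groups, and do not say whether the libraries of a group came from separate plants. Each condition is represented by 1 peak list, to which both of its libraries point, so no value has a replicate error and no test between conditions was possible.

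H4K5ac is one of the acetyl marks on the tail of histone H4. Acetylation removes the positive charge of the lysine, and the mark is generally found at transcribed genes, often as a domain that covers several nucleosomes around the start of transcription. A nucleosome is the unit of chromatin, a stretch of DNA wrapped around a histone core, so a peak as narrow as those described here is about the length of a single such unit with some linker DNA. Per the labels' protocols, however, the chromatin was sheared to 200 to 600 bp. All peaks of the set were therefore shorter than, or at the lower end of, the sheared fragments, and a peak width is the extent called by the submitters' software and no measured footprint. No genome sequence or annotation of the build of the lists was used here, so the regions are given by position, without genes or bases.

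The well-watered list held 28883 peaks and the drought-stressed list 26147. Read depth is unknown because the lists hold no counts. On chromosomes 1 to 12, 3589 well-watered peaks (12.5%) and 2997 drought-stressed peaks (11.5%) were at most 220 bp wide. The shortest peak measured 139 bp in the well-watered list and 145 bp in the drought-stressed list, and the smallest gaps between neighbouring peaks were 140 and 146 bp. Widths and gaps below these values were thus not listed, and the lower end of the set lies at this floor.

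The first question was what became of narrow peaks between the conditions. Narrow acetylated regions were mostly not shared as narrow regions. Of the 3589 narrow well-watered peaks, 816 (22.7%, 95% Wilson interval 21.4% to 24.1%) were members of nucleosome-sized pairs, while 2159 (60.2%) had no overlapping drought-stressed peak, beside 15.1% of all well-watered peaks on these chromosomes. Another 437 (12.2%) were paired with a drought-stressed peak over 220 bp, whose median width was 273 bp. The remaining well-watered peaks were 96 paired with a narrow peak of another width ratio and 81 with an overlap that was not 1-to-1.

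The drought-stressed list divided differently. Of its 2997 narrow peaks, 816 (27.2%, 25.7% to 28.8%) were members and 834 (27.8%) had no well-watered counterpart, beside 4.88% of all drought-stressed peaks. The largest class, 1029 peaks (34.3%), met a well-watered peak over 220 bp, with a median width of 321 bp. The share paired with a broader peak was thus 34.3% (32.7% to 36.1%) of the narrow drought-stressed and 12.2% (11.1% to 13.3%) of the narrow well-watered peaks. This difference describes 2 lists of unequal length and unknown depth, and its cause was not tested.

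Within each list the members had higher scores than the narrow peaks that were not shared. A score is a value that the authors gave to each peak, on a scale that the sources used here do not state, and it is compared within a list only. The median well-watered score was 148 for members (interquartile range 70.8 to 330) and 48 for narrow peaks without counterpart (36 to 68.5). For drought-stressed peaks these medians were 123 (62 to 274) and 45 (35 to 68). Why scores and the presence of a counterpart went together was not tested.

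Against whole lists the members ranked low. Their median score lay at percentile 30.5 of the well-watered list and at percentile 25.9 of the drought-stressed list, beside 59.4 and 55.0 for the other 22828 pairs. Low medians were also found in pairs of 221 to 300 bp under the same ratio limits. Their median well-watered score was 170.5 (order-statistic interval 150 to 193), against 148 (136 to 170) for the members. Their median drought-stressed score was 135 (120 to 157), against 123 (113 to 135). The intervals overlap in both lists, so the members did not stand apart from these pairs in median score. Above the list's median score were 167 members (20.5%) in the well-watered and 137 (16.8%) in the drought-stressed list. A few were among the strongest peaks: 28 members (3.43%) were in the top 10% of the well-watered list and 30 (3.68%) in the top 10% of the drought-stressed list.

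Widths differed slightly between the lists. The well-watered widths ran from 139 to 220 bp with a median of 183 bp (order-statistic 95% interval 180 to 185 bp), and the drought-stressed widths ran from 145 to 220 bp with a median of 174 bp (172 to 177 bp). From 139 to 159 bp there were 153 well-watered and 202 drought-stressed peaks, and from 200 to 220 bp there were 213 and 140. The drought-stressed widths leaned to the narrow end of the range. These values are bounded by the rule that chose the members, and by the 139 and 145 bp floors, and are given as a description.

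**Figure D1:**
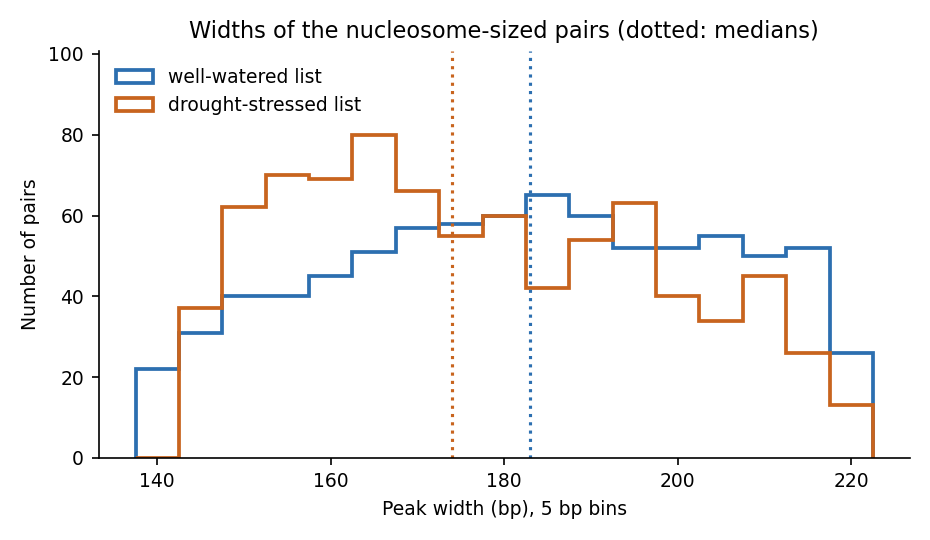
Widths of the peaks of the 816 nucleosome-sized pairs, in 5 bp bins, with the peak width in bp on the x axis and the number of pairs on the y axis. The blue line is the well-watered list (median 183 bp, dotted) and the orange line the drought-stressed list (median 174 bp, dotted), which holds more of its peaks below 160 bp.

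The second question was how far the edges of these regions differed between conditions. The direction of the change was nearly balanced. Of the 816 pairs, 437 (53.6%) were narrower under drought, beside 75.1% of all 1-to-1 pairs. Wider under drought were 351 (43.0%), beside 24.2% of all pairs, and 28 were equal. From the well-watered to the drought-stressed list the width changed by a median of -2 bp (95% interval -4 to -1 bp), with a range of -71 to 35 bp. For the other pairs the median was -57 bp. The near balance was not particular to the members. In the pairs of 221 to 300 bp under the same ratio limits, 54.1% were narrower and the median change was -3 bp (-6 to 0 bp). The limits on the ratio and on width used this same contrast, so no support is drawn from these shares.

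The limits cut through a continuous range. At the width limit, 16 members had a broader peak of exactly 220 bp, and 17 pairs just outside had one of 221 bp. The nearest ratios were 0.673 inside and 0.664 outside the lower limit, and 1.199 inside and 1.2 outside the upper one. Of 912 pairs with both widths at most 220 bp, 2 were left out for a ratio at or below the lower limit and 94 for one at or above the upper limit. The excluded pairs were thus nearly all wider under drought. This was largely set in advance. With shortest peaks of 139 and 145 bp and a limit of 220 bp, few pairs could reach the lower ratio limit. The slight excess of narrower members goes with this asymmetry: with a ratio above 0.8 and below the inverse of 0.8 the median change was 0 bp.

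The position of a pair is not fixed by the rule beyond the need to overlap. Midpoints of the members lay a median of 8 bp apart (95% interval 7 to 9 bp, interquartile range 3 to 19.5 bp). The distance was at most 10 bp in 463 members (56.7%), beside 22.3% of all 1-to-1 pairs. The midpoint moved toward lower coordinates in 400 members, toward higher coordinates in 392, and not at all in 24. Shifts of the regions therefore had no common direction along the chromosomes.

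Both ends lay within 20 bp of their counterparts in 475 members (58.2%, 54.8% to 61.5%), beside 12.6% of all pairs. The limits on width and ratio leave a narrow pair less room in bp for its ends to differ than a broad one, so these shares fall with width in part through the rule itself. Differences between such sets of pairs are described by their counting intervals and were not tested, since every set comes from the same lists. Under the same ratio limits the share was 46.1% (41.9% to 50.3%) in the 536 pairs of 221 to 300 bp, 23.4% in the 2184 pairs of 301 to 500 bp, 13.8% in the 8016 pairs of 501 to 800 bp and 11.8% in the 3860 broader pairs. The median distance between midpoints rose along the same classes, from 8 bp in the members to 12.2, 17.5, 22.5 and 28 bp. Relative to the mean width of the pair, the median midpoint distance was 4.32% in the members (95% interval 3.90% to 5.10%), then 4.65%, 4.37%, 3.57% and 2.77% in the 4 broader classes, and 4.72% in all other pairs. In proportion to their width, the members were thus no more closely placed than broader pairs, and pairs over 500 bp were closer.

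When the ends moved, they mostly moved together. Both ends shifted in the same direction in 417 members (51.1%), beside 38.8% of all pairs. Both ends moved inward under drought in 165 (20.2%), beside 47.4% of all pairs, and both moved outward in 109 (13.4%), beside 8.88%. In 110 members (13.5%) 1 end was at the identical base in both lists, beside 4.68% of all pairs, and in 15 (1.84%) both were, beside 0.228%. In the pairs of 221 to 300 bp under the same ratio limits, these shares were 11.4% and 2.05%. Both have intervals that overlap those of the members, so identical ends did not set the members apart from these pairs. An inward move of both ends, the most frequent pattern over all pairs, was less frequent here, which the limit on the width ratio favours. This was not particular to the members. In the pairs of 221 to 300 bp, both ends moved inward in 16.6% (13.7% to 20.0%) and the same way in 58.4% (54.2% to 62.5%). In those of 301 to 500 bp the shares were 34.2% and 48.4%.

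How closely the ends matched followed the score. The members were divided by well-watered score into 4 score groups of 204, from the lowest (group 1) to the highest (group 4). In group 1 (scores 23 to 70), both ends lay within 20 bp in 46 of 204 pairs (22.5%, 17.4% to 28.8%), and the median distance between midpoints was 29 bp. In groups 2 and 3 the share was 47.5% and 73.0%, with distances of 12 and 5.5 bp. In group 4 (330 to 4752) it was 183 of 204 (89.7%, 84.8% to 93.2%), with a distance of 3 bp. Dividing by the drought-stressed score gave 18.6%, 44.6%, 76.0% and 93.6%. Among the other pairs, 4 such groups by well-watered score gave 6.01%, 11.2%, 12.5% and 14.0%. Those groups are not matched to the members' groups by score, since they span 20 to 219, 219 to 554, 554 to 1037 and 1037 to 97397. The high-scored members therefore returned to nearly the same bases in both lists, and the low-scored ones did not. The median width change was between -4 and -1.5 bp in the 4 groups by well-watered score. By drought-stressed score it was -5.5, -10.5, -0.5 and 1 bp from group 1 to group 4, and 55.9%, 65.2%, 50% and 43.1% were narrower under drought. The width change thus varied more across groups by drought-stressed than by well-watered score.

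**Figure D2:**
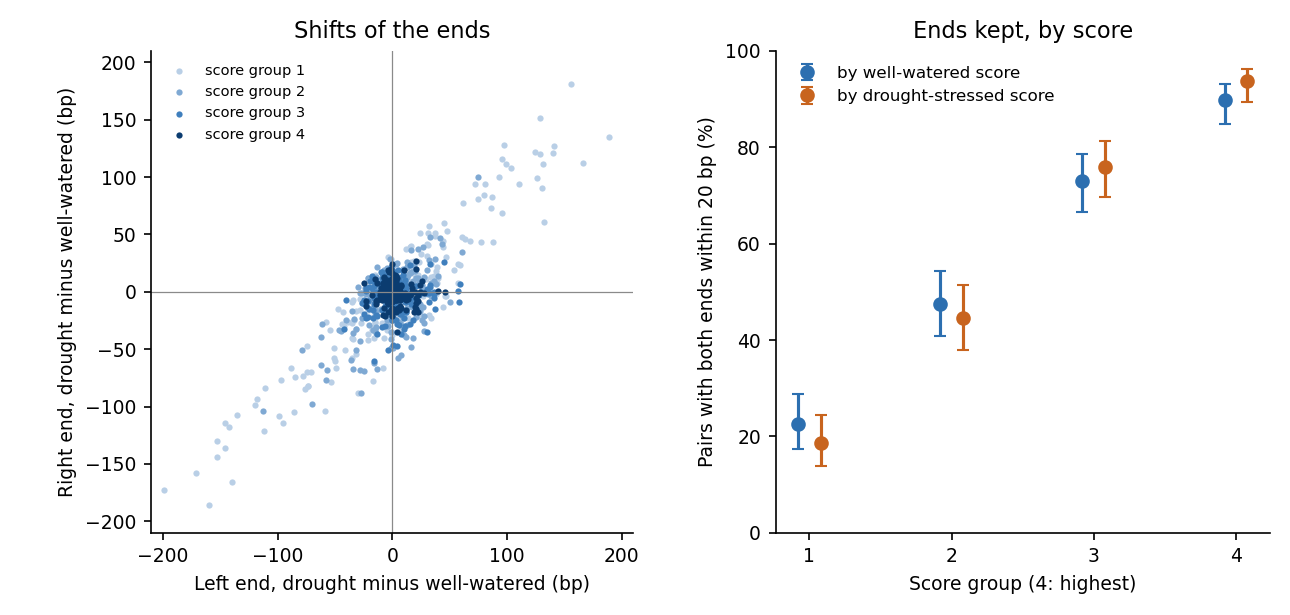
Left, the shift of the left end (x axis, bp) against that of the right end (y axis, bp), drought-stressed minus well-watered, for the 816 pairs, with darker points for higher groups of the well-watered score. Right, the share of pairs with both ends within 20 bp (y axis, %) by score group (x axis), with 95% Wilson intervals; it runs from 22.5% to 89.7% by well-watered score and from 18.6% to 93.6% by drought-stressed score.

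Pairs with identical ends in both lists included strong peaks. On chromosome 5 the peak from 10590314 to 10590508 (195 bp) had the same first and last base in both lists, with a well-watered score of 2477 and a drought-stressed score of 1769. On chromosome 12 the peak from 13406778 to 13406982 (205 bp) did so with scores of 2338 and 2211. So did another peak of this chromosome, from 13401469 to 13401642 (174 bp), with scores of 1045 and 1109. The weakest of the 15, on chromosome 2 from 13852784 to 13852996, scored 175 and 106.

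At the other extreme were pairs that barely overlapped. On chromosome 12 a well-watered peak from 263973 to 264156 met a drought-stressed peak from 263774 to 263983, with 11 bp in common and midpoints 186 bp apart. On chromosome 4 the peaks from 4413348 to 4413545 and from 4413188 to 4413359 shared 12 bp, and on chromosome 6 those from 2750229 to 2750404 and from 2750385 to 2750585 shared 20 bp. The peaks of these 3 pairs scored 32 to 41 in the well-watered and 35 to 51 in the drought-stressed list, near the bottom of both. Over all members, 53 (6.50%) had midpoints more than 75 bp apart, beside 16.3% of all pairs, with median scores of 45 and 44, against 268 and 213 for the 463 members within 10 bp. In 42 members (5.15%) the shared bases were under 50% of either peak, beside 4.77% of all pairs, which include pairs outside the ratio limits. Under the same ratio limits the share was 3.54% (2.28% to 5.47%) in pairs of 221 to 300 bp, with an interval overlapping that of the members. It was 0.504% in pairs of 301 to 500 bp, 0% in those of 501 to 800 bp and 0.0259% in the broader ones. Among pairs under these limits, such small overlaps were thus mostly found in narrow ones.

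The highest-scored members kept their ends closely. The highest well-watered score, 4752 (rank 127 of the list), belonged to chromosome 1 from 16942928 to 16943144, which met a drought-stressed peak from 16942934 to 16943143 with a score of 3234 (rank 142). The highest drought-stressed score, 7030 (rank 59), belonged to chromosome 2 from 14254449 to 14254668, over a well-watered peak from 14254449 to 14254663 with a score of 3418 (rank 233). Both pairs had their ends within 6 bp.

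Among those others, chromosome 12 from 11951780 to 11951971 scored 3508 in the well-watered list, and its drought-stressed peak from 11951784 to 11951964 scored 2506. On chromosome 7 the peak from 5171451 to 5171631 scored 3195, and its counterpart from 5171456 to 5171617 scored 1776. Chromosome 10 from 10863465 to 10863667 scored 3192, with a counterpart from 10863463 to 10863666 at 4376. In the drought-stressed list 2 further members were among the first 5. They were chromosome 6 from 23586282 to 23586501 (score 3673, well-watered score 1712) and chromosome 12 from 5645250 to 5645444 (3120 and 2144). The ranks in the lists differed most for the chromosome 6 member, 1795 among well-watered and 117 among drought-stressed peaks. Scores of different lists share no known scale, so no change is read from them.

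The third question was how isolated the regions were. Compared with the other pairs, the members were spread toward both extremes, close to a neighbour or far from any. The nearest other well-watered peak lay a median of 2423 bp away (95% interval 1941 to 2788 bp, interquartile range 626 to 7350 bp), against 4325 bp for the other pairs (2008 to 7193 bp). It lay within 1 kb for 274 members (33.6%, 30.4% to 36.9%), against 15.4% (15.0% to 15.9%) of the other pairs. At more than 20 kb were 73 members (8.95%, 7.18% to 11.1%), against 3.98% (3.74% to 4.24%). Neither pair of intervals overlaps, but they hold for counting error alone, as if each peak were independent of its neighbours.

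A position close to another peak went with small width in general. The share within 1 kb was 34.7% (30.8% to 38.8%) for pairs of 221 to 300 bp, 26.0% for those of 301 to 500 bp, 11.3% for those of 501 to 800 bp and 8.01% for the broader ones. Members did not stand apart from the pairs of 221 to 300 bp in this respect, since the intervals overlap. The share beyond 20 kb was 5.97% (4.26% to 8.31%) in the pairs of 221 to 300 bp, again with an overlapping interval, and 3.21% (2.54% to 4.03%) in those of 301 to 500 bp.

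The drought-stressed list gave like values. There the nearest other peak lay a median of 2712 bp from a member, within 1 kb for 260 (31.9%) and beyond 20 kb for 83 (10.2%). In both lists at once, 236 members (28.9%) had a neighbour within 1 kb and 61 (7.48%) had none within 20 kb. In 38 members the close neighbour was present in the well-watered list alone and in 24 in the drought-stressed list alone. In 610 members (74.8%) the nearest peaks of the lists were themselves a 1-to-1 pair, beside 79.4% of all pairs. The gap to that neighbour was larger under drought in 352 and smaller in 251, with a median difference of 6 bp (interquartile range -15 to 40.8 bp). For the other pairs with such a neighbour the median difference was 48 bp (3 to 112 bp). A neighbour shared by both lists was thus no more frequent among the members than among pairs in general.

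The neighbours were of several kinds. For the 274 members with a well-watered peak within 1 kb, the median gap was 368.5 bp and the neighbour had a median width of 313.5 bp. It was at most 220 bp wide in 90 of them (32.8%) and over 500 bp wide in 78 (28.5%). For the other pairs with a peak within 1 kb, the median neighbour width was 422 bp, with 21.03% at most 220 bp and 41.2% over 500 bp. Neighbours of close members had the smaller median width and the larger share of narrow peaks. In 38 members (4.66%, 3.41% to 6.33%) a peak lay within 1 kb on both sides, against 0.894% of the other pairs. The pairs of 221 to 300 bp had a share of 3.54% (2.28% to 5.47%), with an overlapping interval.

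**Figure D3:**
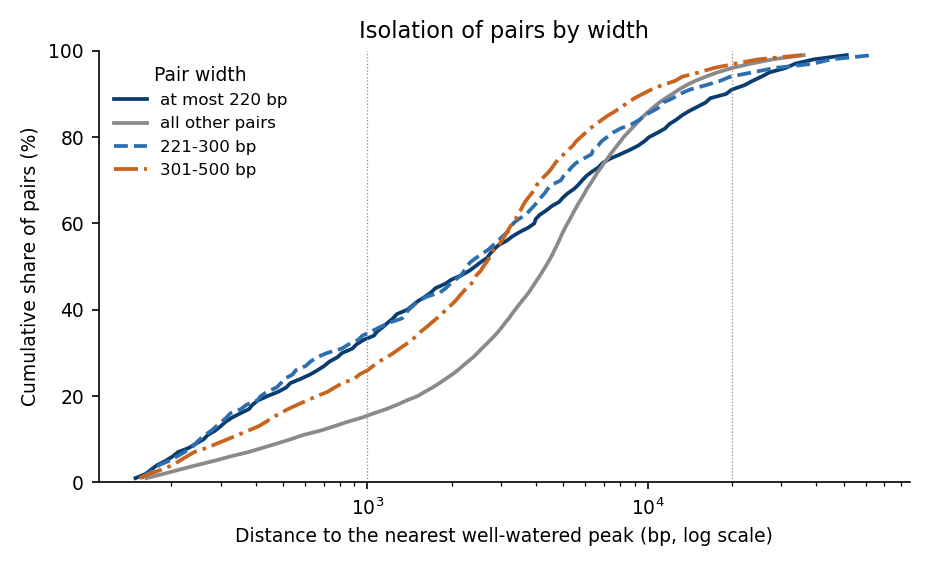
Cumulative share of pairs (y axis, %) by the distance to the nearest other well-watered peak (x axis, bp, log scale) for the nucleosome-sized pairs, for pairs of 221 to 300 bp and of 301 to 500 bp under the same ratio limits, and for all other 1-to-1 pairs. Dotted lines mark 1 kb, within which lay 33.6% of the nucleosome-sized and 15.4% of all other pairs, and 20 kb, beyond which lay 8.95% and 3.98%.

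Isolated members did not have lower median scores than the members as a whole. The 73 members more than 20 kb from any other well-watered peak had median scores of 204 and 150 in the well-watered and drought-stressed lists, and 53 of them (72.6%) had both ends within 20 bp. In the members with a peak within 1 kb the median scores were 169 and 120.5, and 56.6% had both ends within 20 bp. Ranked by the smaller of the distances in the 2 lists, the most isolated member was on chromosome 4, from 10252553 to 10252755 in the well-watered and from 10252566 to 10252752 in the drought-stressed list. It lay 133748 bp from the next well-watered and 133754 bp from the next drought-stressed peak, and scored 408 and 292.

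Next in isolation was chromosome 6 from 18686064 to 18686210, with a drought-stressed peak from 18686059 to 18686213. Its nearest peaks were 100989 and 101013 bp away, and its scores were 110 and 128. The third by this measure, on chromosome 1 from 13061718 to 13061921, lay 82084 and 82224 bp from the next peaks and scored 2379 (rank 619) in the well-watered and 1206 (rank 1959) in the drought-stressed list. By the well-watered list alone, the chromosome 2 member with the highest drought-stressed score would come before it, at 83468 bp, but it lay 14946 bp from the next drought-stressed peak. The 3 named by the combined measure were single narrow peaks that came back at the same place in both lists, with ends within 13 bp.

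The fourth question was where the regions lay. Chromosome 10 had the largest share of nucleosome-sized pairs, 89 of 1353 (6.58%, 5.38% to 8.03%). Chromosome 11 followed with 69 of 1362 (5.07%) and chromosome 12 with 69 of 1398 (4.94%). The first place of chromosome 10 rests on 1 window, from 5 to 6 Mb, which held 27 of its 89 members among 94 pairs. Chromosome 3 had the smallest, 55 of 2923 (1.88%, 1.45% to 2.44%), and chromosome 1 had 74 of 3237 (2.29%). Per Mb, counted up to the last peak of either list, chromosome 10 held 3.84 members and chromosome 3 held 1.51. The order is not that of peak density, since chromosome 3 had 80.3 pairs per Mb and chromosome 10 had 58.3.

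Members made up a larger share of the pairs where pairs were sparse. The 379 windows of 1 Mb that held pairs were divided into 4 classes by their number of pairs. In the class with the fewest (2 to 42), 190 of 3029 pairs were members (6.27%, 5.46% to 7.19%). In the class with the most (83 to 125) 231 of 9106 were (2.54%, 2.23% to 2.88%). The windows between had shares of 4.52% and 2.64%. From fewest to most pairs, the classes of 95, 95, 94 and 95 windows held 190, 219, 176 and 231 members. The members were thus a larger share, but not more numerous, where pairs were sparse.

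Along the chromosomes the members lay further inside than other pairs. In the first and last 20% of chromosome length were 301 members (36.9%, 33.6% to 40.3%), against 50.1% (49.4% to 50.7%) of the other pairs. Of the pairs of 221 to 300 bp, 43.7% (39.5% to 47.9%) lay there. That interval overlaps the members' interval, so the members did not stand apart from these pairs. Each chromosome was also cut into 10 equal segments, of which segments 3 to 5 held 315 members (38.6%, 35.3% to 42.0%), against 21.1% of the other pairs. In segment 4, 118 of 1626 pairs were members (7.26%), and in segment 9, 62 of 3120 were (1.99%). Positions of centromeres were not used here.

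**Figure D4:**
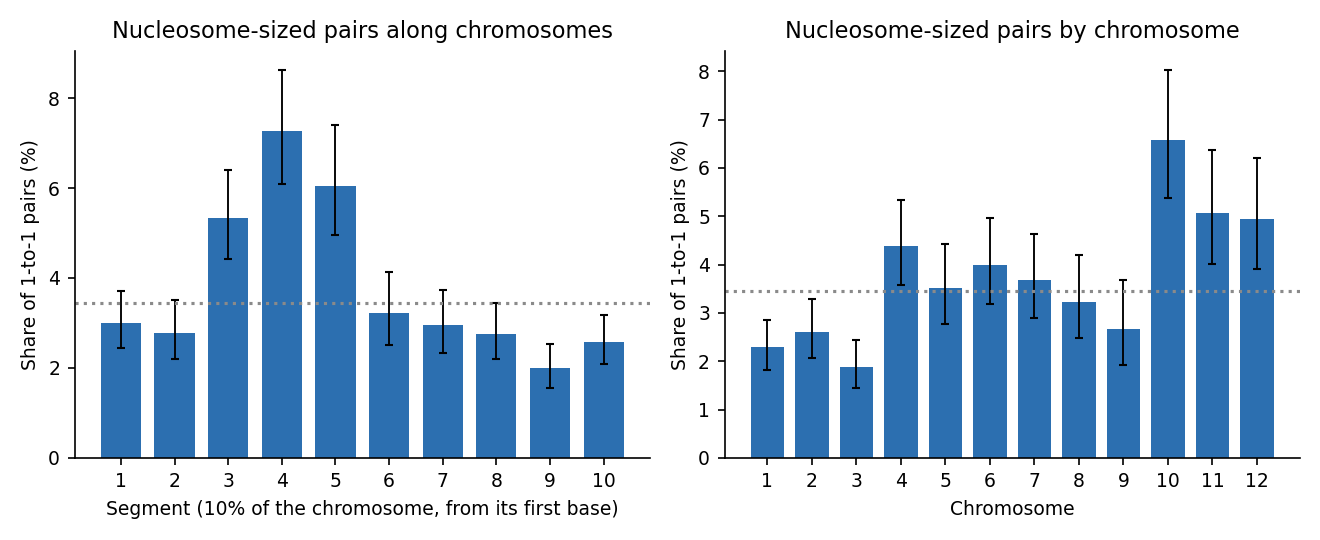
Share of 1-to-1 pairs that were nucleosome-sized (y axis, %), by segment of 10% of the chromosome from its first base, summed over 12 chromosomes (left), and by chromosome (right), with 95% Wilson intervals; the dotted line marks 3.45%, the share over all pairs. Segment 4 reached 7.26% and segment 9 had 1.99%; chromosome 10 reached 6.58% and chromosome 3 had 1.88%.

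The location also followed the score. In score group 1 by well-watered score, 102 of 204 (50.0%, 43.2% to 56.8%) lay in the first or last 20% of a chromosome, as did 50.1% of the other pairs. In groups 2 and 3, 43.6% and 31.4% did. In group 4, 46 of 204 (22.5%, 17.4% to 28.8%) did, and 114 (55.9%, 49.0% to 62.5%) lay in segments 3 to 5. Among the other pairs the share in the outer 20% was 51.1%, 52.7%, 52.5% and 44.1% from the lowest to the highest of their 4 score groups. The inward position was thus a property of the high-scored members, while the low-scored ones were distributed much like other pairs.

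The last question was whether the members clustered. For 204 members (25%, 22.2% to 28.1%) the next 1-to-1 pair on at least 1 side was also a member. A member was likewise next to 5.81% of the other pairs and to 14.0% (11.3% to 17.2%) of the pairs of 221 to 300 bp. How often pairs of 221 to 300 bp lay next to their own kind was not measured. Among the members the share rose from 9.80% in score group 1 to 39.2% in group 4. With no gap over 100 kb allowed, 621 members stood alone and 195 (23.9%) formed 80 groups of consecutive members, of which 59 held 2, 12 held 3, 6 held 4, 2 held 5 and 1 held 7.

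The longest group was on chromosome 5 from 9922567 to 10011331, where 7 members in a row spanned 88.8 kb that held 9 well-watered and 8 drought-stressed peaks. The well-watered scores were 98 to 977 and the drought-stressed scores 100 to 810. All 7 had both ends within 20 bp, 5 were wider under drought and 2 narrower. The gaps between them were 2536 to 36602 bp, so this was a row of separate narrow peaks kilobases apart.

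Next came 2 groups of 5. On chromosome 8 from 7013900 to 7057519 the members spanned 43.6 kb, with well-watered scores of 104 to 567 and drought-stressed scores of 103 to 329. On chromosome 2 from 13620477 to 13733224 they spanned 112.7 kb, with scores of 128 to 770 and 173 to 583. In each, 3 were wider and 2 narrower under drought.

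By 1 Mb windows, the members were most numerous on chromosome 10 from 5 to 6 Mb, where 27 of 94 pairs were members (28.7%). Of these, 15 were narrower, 10 wider and 2 equal, with a median change of -3 bp. Their median scores were 350 in the well-watered and 301 in the drought-stressed list, 21 had a well-watered peak within 1 kb, and 21 had both ends within 20 bp. Within this window, 15 members lay in 93.3 kb, from 5039725 to 5133060, a stretch with 37 well-watered and 37 drought-stressed peaks. Of these 15, 14 had a well-watered neighbour within 1 kb. The strongest, from 5132841 to 5133060, scored 3033 and met a drought-stressed peak from 5132842 to 5133057 that scored 2373. Here the members were interspersed with other peaks at short distance. The chromosome 5 group was defined as members in a row, with no other 1-to-1 pair between them, so the stretches are not compared in this respect.

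Other full windows were chromosome 7 from 9 to 10 Mb with 14 members of 67 pairs, chromosome 5 from 10 to 11 Mb with 13 of 46, chromosome 8 from 7 to 8 Mb with 12 of 59, and chromosome 4 from 3 to 4 Mb with 11 of 34. In all, 10 windows held 10 or more members and together 128 of the 816, while 76 of 379 windows with pairs (20.1%) held none. These windows and the dense stretch were picked for their members, so no interval is given for them.

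The direction of the width change differed little among most chromosomes. Outside chromosome 12, the share of members narrower under drought ran from 47.3% on chromosome 1 to 65.7% on chromosome 7. Their intervals overlap (36.3% to 58.5% and 53.7% to 75.9%). On chromosome 12, singled out as the lowest of the 12, it was 25 of 69 (36.2%, 25.9% to 48.0%). This interval lies below those of chromosomes 3, 6 and 7 and overlaps those of all others, chromosome 1 included. In the chromosome 12 window from 20 to 21 Mb, 9 of 10 members were wider, by a median of 20 bp over all 10. The direction of the other pairs in this window is not given here. Without this window, 24 of 59 members of the chromosome (40.7%) were narrower.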

How the data were processed

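There is 1 deposited peak list for each condition, named by both of its libraries per the labels. Per the submitters' processing notes, BWA, SAMtools, MACS2 and deepTools were used, with no versions; the threshold, control and genome build were not given in the sources used here. The score is the deposited value the authors' software gave each peak, on an unstated scale. Each list also holds the authors' peak start and end, written here 1-based.

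Overlaps, 1-to-1 pairs, widths, ends and distances (edge to edge, within a list) were computed from the lists with Python 3.11.15, numpy 2.4.6, pandas 2.3.3 and scipy 1.17.1. Overlaps were checked against bedtools 2.31.1 and the code was tested on simulated data. The last peak's end stood for chromosome length. Shares carry Wilson and medians order-statistic 95% intervals, for counting error only. The members and the questions were chosen with earlier results of these lists known. Members were named by a rule: the 5 highest scores of each list, the 3 most isolated (by the smaller distance of the lists), the 3 longest groups and the 3 largest midpoint shifts. Pairs with identical ends, full windows, the dense stretch on chromosome 10, the comparison classes of width and the score groups were added after their values were seen. The available gene table names another assembly and no build is given for the lists, so it was not used.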

Additional observations from a re-analysis of the deposited data

Results flagged for a closer look

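The rule is confined to chromosomes 1 to 12, but the lists also hold the unplaced sequences Un and Sy. On these, 27 of 74 1-to-1 pairs (36.5%, 95% Wilson interval 26.4% to 47.9%) met the same width limits, against 3.45% of the pairs on the numbered chromosomes; a count of 0 would have allowed a share of up to 4.05%. They were 11 of 46 pairs on Un and 16 of 28 on Sy. Their median scores were 322 in the well-watered and 239 in the drought-stressed list, 21 of the 27 had both ends within 20 bp, and 13 were narrower under drought. They were looked at because they stand outside the pairs described above.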

How the results depend on the processing

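Of 48 values under alternative settings, 32 stayed within the interval of the reported value (for the number of members, within 1.5 times) and 16 moved. Leaving out the peaks in the lowest 20% of scores of each list before pairing had the widest effect: 461 members, a median width change of 0 bp, 82.2% with both ends within 20 bp, 32.3% beside another member and 26.2% in the outer 20% at either end of the chromosomes. A width limit of 200 bp gave 0 bp, 64.3% with both ends within 20 bp and 20.6% beside another member. A limit of 250 bp gave -5 bp, 50.8% and 29.5%. A ratio above 0.8 and below its inverse gave a median change of 0 bp. Both ends lay within 10 bp in 33.2% and within 30 bp in 73.9% of members, 47.1% had a well-watered peak within 2 kb, and 20.96% lay in the outer 10% at either end. Reciprocal overlap of 50%, distances in the drought-stressed list and leaving out the chromosome 10 window with most members (chosen after the data were seen) moved none of the values run. No paired analysis was possible because the 2 libraries of a condition share a peak list; leaving out a library could not be done either. Depth is unknown, and its part in the values was not tested.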
